A study of Mus musculus with 6 samples.

Results

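The 318 regions described here are the places in the mouse genome where the first replicate of a ChIRP-seq experiment on the long non-coding RNA Hoxc4-au gave at least 1 peak. They were chosen by the peak caller's own p-value: all peaks called with the even and the odd probe pool of replicate 1 (229 and 199 peaks) were merged wherever they overlapped by at least 1 bp, leaving out 1 interval of 160 kb on chromosome 15. They make up 318 of the 9344 regions obtained when the 4 peak lists of the study, 2 replicates of 2 pools, are merged in the same way. The cells were epididymal fat-derived preadipocytes of the C57BL/6 strain, with no treatment named, and all libraries share that strain and cell type. Each replicate consists of 1 library captured with even probes, 1 captured with odd probes and 1 input library, 6 in all. No library captured with probes against another RNA, and none from cells lacking Hoxc4-au, is among them. Whether replicates 1 and 2 stem from different animals or cultures is not in the labels, and cell type markers cannot be read from DNA peak lists.

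ChIRP (chromatin isolation by RNA purification) uses biotinylated DNA probes that tile an RNA to pull down the crosslinked chromatin that the RNA touches, whose DNA is then sequenced. The probes are divided between the pools by turns along the RNA, so the pools share no probe. DNA brought down by a probe pairing directly with the genome would be recovered by 1 pool. DNA held by the RNA can be recovered by both, but a call with both pools does not by itself show that the RNA held the DNA. Preadipocytes are the committed precursors of fat cells, and Hox clusters, from one of which the name Hoxc4-au derives, give rise to many long non-coding RNAs, some of which bind chromatin regulators.

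Replicate 1 was the shallower of the replicates. Its captured libraries kept 3934792 (even) and 4099230 (odd) tags after duplicate positions were removed, against 11514289 and 10231007 in replicate 2, and the duplicates removed were 47.6% and 40.2% against 9.65% and 7.16%. Over the genome-wide mean background (0.200 and 0.208 fragments in replicate 1), the lowest summit called held 4 fragments in either pool of replicate 1 and 5 in replicate 2, which is 1.02 and 0.976 fragments per 1000000 kept tags (FPM) in replicate 1 but 0.434 and 0.489 in replicate 2. The weakest members lay just inside the cutoff of 4.30 on the −log10 p scale: the even peak at chr11:118279726-118279820 and the odd peaks at chr12:76441958-76442052 and chr7:88480754-88480848 each had a −log10 p of 4.52 from 4 fragments and a fold of 3.72. Values of places just outside the cutoff are not in the lists. There is 1 library per pool and replicate and no test over samples was made, so all values are descriptions, and the intervals given with shares are exact binomial 95% intervals that cover counting error only.

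Most regions were called over almost no input signal, and a small class was called over a great deal of it. The fold is the authors' value for a peak, (summit fragments + 1) / (local background + 1), from which the background was recovered; it is in input fragments scaled down to the depth of the captured library. The median over the 318 regions, taking the mean over the peaks of each, was 0.261 fragments. Regions were classed by the lowest value among their peaks. This was below 1 fragment at 282 regions, from 1 to 5 at 4, from 5 to 10 at 4 and at 10 or more at 28 (8.81%, interval 5.93 to 12.5%). In replicate 2, 0.551% of 9080 regions had a background of 10 or more, although the scaling makes the same cut stricter in replicate 1, where 10 scaled fragments stand for 30.3 (even) or 29.1 (odd) sequenced input fragments. The background rule was part of how the regions were described, so nothing is read from the class sizes.

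**Figure D1:**
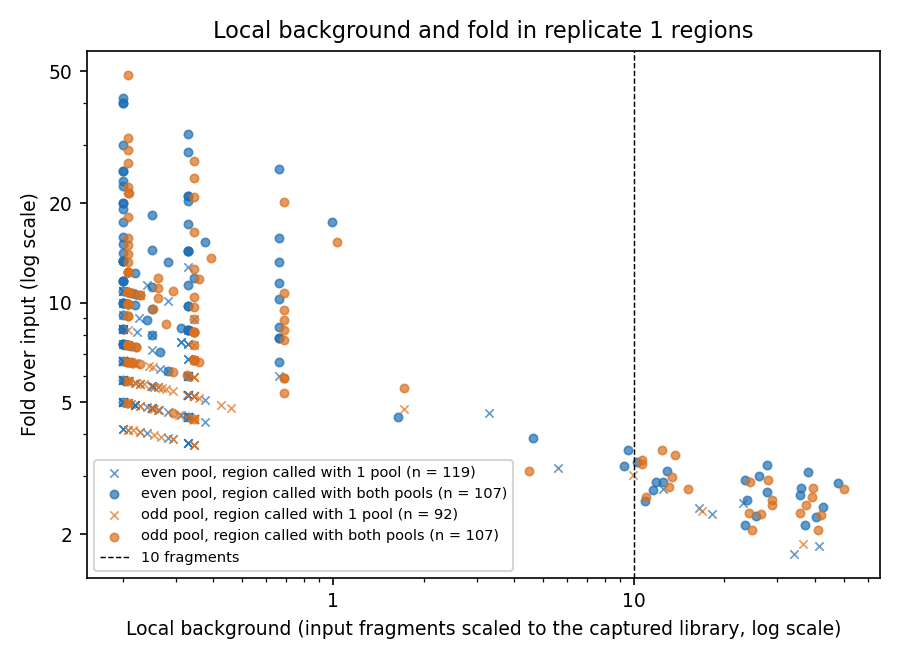
Fold enrichment (vertical, log scale) against local background in scaled input fragments (horizontal, log scale) for the regions of replicate 1, with a line at a background of 10 fragments. The 28 regions classed as high background have folds between 1.74 and 3.59, while regions over a background below 1 fragment reach 48.8. Each point lies at its own pool's background, so a point of a region classed as low can also lie right of the line.

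In most peaks the background lay at the genome-wide mean or at a whole number of input fragments. Over the strongest even peak of each of 226 regions, it was within 0.005 scaled fragments of the genome-wide mean in 81 (35.8%) and within 0.02 fragments of a whole number of unscaled input fragments in 89 (39.4%), that number being 1 in 46. In the odd list the corresponding counts over 199 regions were 61 (30.7%), 85 (42.7%) and 47. These counts include the high-background regions. Where the background is below 1 fragment, the fold is set mainly by the captured fragments at the summit.

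Of the 318 regions, 107 were called with both pools (33.6%, interval 28.5 to 39.1%), 119 with even probes only and 92 with odd probes only. Merged replicate 2 regions were called with both pools in 281 of 9080 cases (3.09%). The lists differ in length and depth, so the gap between these shares was not tested. The 107 regions called with both pools comprise 87 over a low background, below 10 fragments, and 20 over a high one.

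At the 87 low-background regions called with both pools, even and odd probes gave similar folds that ranged widely between regions. Even folds ran from 3.22 to 41.7 with a median of 11.2 and odd folds from 2.58 to 48.8 with a median of 9.67. The median summit held 14 fragments with even and 12 with odd probes. The even fold was the higher of the pair at 70 of 87 regions, and the even summit also held more FPM at 71. The excess was small: the median log2 ratio of even to odd fold was 0.22 (interquartile range 0.01 to 0.47). Folds more than 2 times apart were seen at chr9:62456332-62456507 (23.3 even, 9.93 odd) and chr14:102728844-102728999 (19.2 even, 9.10 odd). Across the 87 regions the Spearman correlation between the pools' folds was 0.83; both pools share an input library and the requirement that each pass the cutoff.

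**Figure D2:**
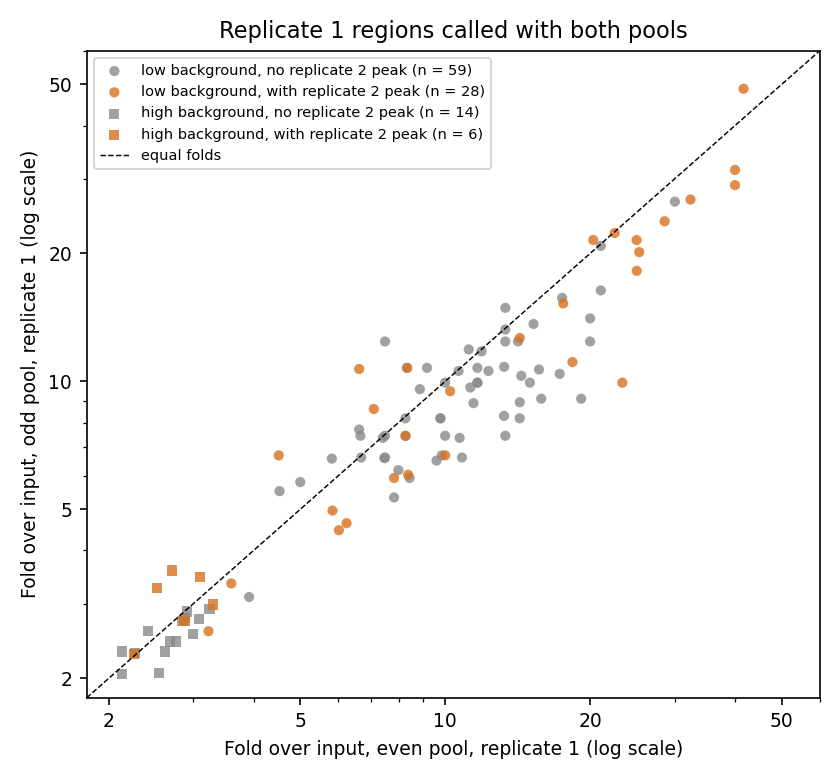
Even-pool fold (horizontal) against odd-pool fold (vertical) on log axes for the 107 regions called with both pools, coloured by whether a replicate 2 peak overlaps them, with squares for a background of 10 or more. Most points lie just on the even side of the diagonal, and the squares gather below a fold of 3.60.

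The strongest region was chrX:103382016-103382604, 589 bp wide, where the summit held 49 fragments with even probes and 58 with odd probes in replicate 1 (folds 41.7 and 48.8). Its replicate 2 summits held 43 and 53 fragments (folds 27.8 and 35.5). In FPM it stood at 12.5 (even) and 14.1 (odd) in replicate 1 and at 3.73 and 5.18 in replicate 2, so it too was lower in replicate 2. The next was chr17:4626161-4626640, 480 bp wide, with 47 and 34 fragments in replicate 1 (folds 40.0 and 29.0). Its replicate 2 summits held only 11 and 14 fragments (folds 7.57 and 9.87), from libraries with more kept tags. This second region stood at 11.9 (even) and 8.29 (odd) FPM in replicate 1 and at 0.955 and 1.37 in replicate 2. Both regions were called in every list, with FPM further apart between replicates than between pools.

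Most low-background regions called with both pools had a like width. Widths ran from 103 to 802 bp with a median of 156 bp (interquartile range 150.5 to 164), and 62 of 87 (71.3%, interval 60.6 to 80.5%) were 140 to 170 bp wide. Among the 203 low-background regions called with 1 pool, 27 (13.3%) fell in that band, and among 249 low-background regions that replicate 2 called with both of its pools 52 did (20.9%). The shortest peak the caller reports is 95 bp, the length to which each tag was extended, and 107 of the 203 regions called with 1 pool (52.7%) had exactly this width against none of the 87. Width is taken from the lists that chose the members, and merging overlapping peaks can only widen a region, so these are descriptions.

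**Figure D3:**
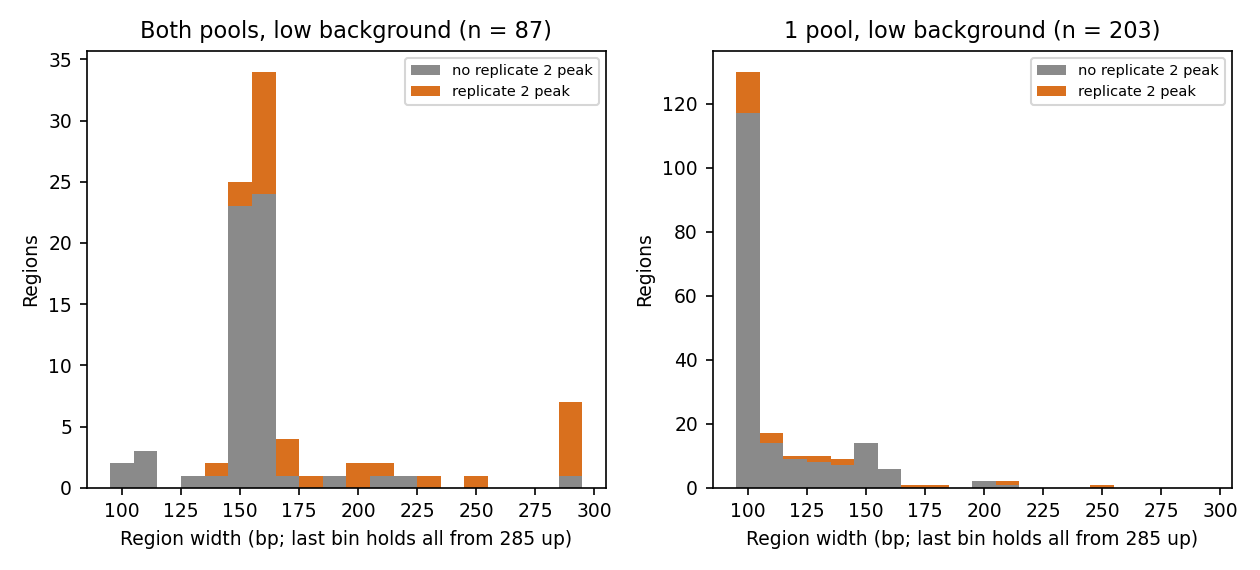
Widths in bp of low-background regions called with both pools (n = 87) and with 1 pool (n = 203), stacked by whether a replicate 2 peak overlaps. Regions called with both pools pile up between 140 and 170 bp, and 14 of the 18 wider than 170 bp recur, while regions called with 1 pool pile up at 95 bp.

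The 2 pools also placed their summits at nearly the same base. At the 87 regions the even and odd summits were a median of 4 bp apart (interquartile range 1 to 15) and within 5 bp of each other at 49 (56.3%, interval 45.3 to 66.9%). In the 249 replicate 2 regions called with both pools over a low background, the median distance was 52 bp and 19 (7.63%, interval 4.66 to 11.7%) lay within 5 bp. More fragments fix a summit more closely, so regions were also compared at like summit height. With at least 10 fragments at the lower summit, 39 of 56 replicate 1 regions (69.6%, interval 55.9 to 81.2%) had summits within 5 bp, against 14 of 72 in replicate 2 (19.4%, interval 11.1 to 30.5%). With fewer than 10, the counts were 10 of 31 (32.3%) and 5 of 177 (2.82%).

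Close summits went with narrow regions. Of the regions up to 170 bp wide, 45 of 69 (65.2%) had pool summits within 5 bp, and of the wider ones 4 of 18. At the 20 low-background regions found in all 4 lists the difference between replicates was not seen: the pool summits were a median of 10.5 bp apart in replicate 1 and 11 bp in replicate 2, and within 5 bp at 9 and 7 of them. The 7 of these regions up to 170 bp wide had medians of 3 and 11 bp, and the 13 wider ones 49 and 11 bp.

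**Figure D4:**
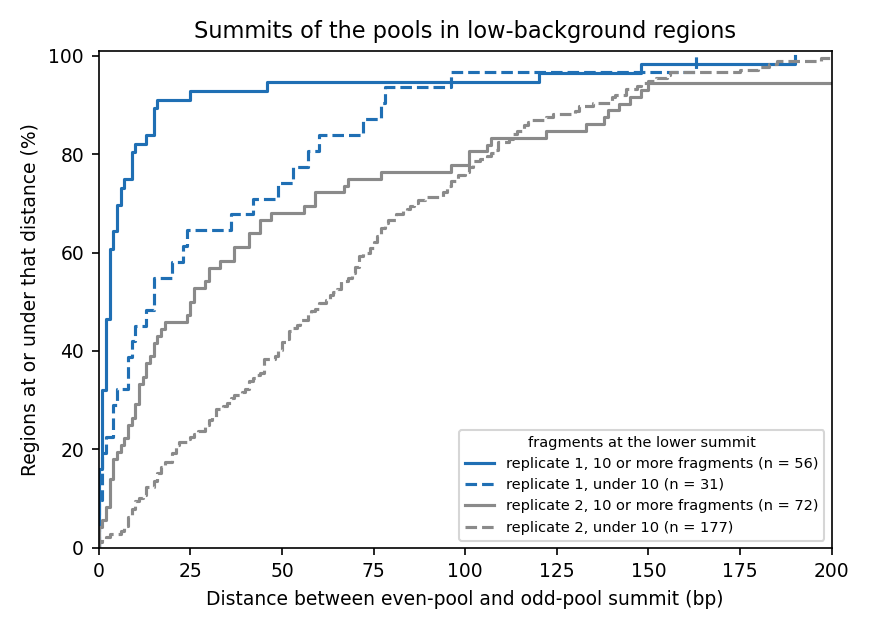
Cumulative share of low-background regions called with both pools (vertical, percent) by distance in bp between the even and odd summits (horizontal), for each replicate and for lower summits of at least 10 or under 10 fragments. The replicate 1 curves rise first: 69.6% of its regions with at least 10 fragments are within 5 bp, against 19.4% in replicate 2.

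Replicate 2 did not choose the regions, so its peaks are a readout apart from that choice. Both replicates used even and odd probes against Hoxc4-au, and the labels do not say whether the cells differ. A peak of either replicate 2 pool overlapped 60 of the 318 regions (18.9%), and conversely 0.639% of the replicate 2 regions met a replicate 1 peak. For scale, replicate 2 peaks cover 1.10 Mb, or 0.0588% of the effective genome size the caller was given. Regions called with both pools recurred in 34 of 107 cases (31.8%, interval 23.1 to 41.5%), 25 of them in both replicate 2 lists, and regions called with 1 pool in 26 of 211 (12.3%, interval 8.21 to 17.5%). Without the high-background regions the counts were 28 of 87 (32.2%) and 25 of 203 (12.3%).

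Recurrence did not rise steadily with fold. Over the low-background regions called with both pools, ordered by the smaller of the pools' folds, 12 of 33 (36.4%) recurred below 7.5, 3 of 21 (14.3%) from 7.5 to 10, 4 of 22 (18.2%) from 10 to 20, and 9 of 11 (81.8%, interval 48.2 to 97.7%) at 20 or more. The last bin is thin.

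Wide regions recurred far more often than narrow ones. A replicate 2 peak overlapped 14 of 69 regions up to 170 bp wide (20.3%, interval 11.6 to 31.7%) and 14 of 18 wider ones (77.8%, interval 52.4 to 93.6%). The split was as marked in each replicate 2 list alone, at 9 of 69 against 13 of 18 in the even list and 12 of 69 against 14 of 18 in the odd list. Below a smaller fold of 20 it was 10 of 63 against 9 of 13, and without the chromosome 17 group described further on, 12 of 16 wide regions recurred (interval 47.6 to 92.7%). A wider region has more bases that can meet a peak, and the 170 bp split was chosen after the widths were seen. Median widths were 171 bp for the recurring regions (quartiles 159.5 and 230) and 153 bp for the others (150 and 157.5).

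Among the wide recurring regions were chr6:124440573-124441099, 527 bp, with folds of 8.27 (even) and 7.45 (odd) in replicate 1 and 3.65 and 8.55 in replicate 2. On the same chromosome the neighbours chr6:121438038-121438370 and chr6:121438437-121438753 were called in all 4 lists, with folds of 8.33 and 10.8 at the first in replicate 1 and 8.83 and 9.21 in replicate 2. At chr16:17940422-17940646 the replicate 2 folds (13.9 and 8.55) were above those of replicate 1 (4.51 and 6.70). The even folds at the first and the last of these places thus moved in opposite directions between the replicates. Folds depend on depth, since 1 is added to both terms, so no change in level is read from these moves. The 4 wide regions with no replicate 2 peak were chr1:162408134-162408338, chr6:125826902-125827253, chr9:19379824-19380010 and chr11:104389558-104389778.

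The largest low-background class called with both pools was the one that replicate 2 did not call, with 59 of 87 regions. The strongest was chr11:25000095-25000257, 163 bp, where 35 fragments (exact Poisson 95% interval 24.4 to 48.7) lay at the even summit and 31 (21.1 to 44.0) at the odd summit, 1 bp apart (folds 30.0 and 26.5). The nearest replicate 2 peak was 1018024 bp away. At chr5:131995548-131995710, also 163 bp, both summits held 27 fragments at the same base (folds 21.1 and 20.8). At chr2:145692104-145692261, 158 bp, the summits again coincided, with 27 and 21 fragments (folds 21.1 and 16.4).

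The other 7 of the 10 strongest regions of this class were of like form. At chr13:58869734-58869898 the summits held 23 (even) and 16 (odd) fragments. Folds were 15.3 and 13.7 at chr7:150554254-150554404 and 14.2 and 12.4 at chr5:19388694-19388849. Even folds of 13.3 were paired with odd folds of 14.9 at chr6:69466286-69466444, 13.2 at chr5:89965165-89965319 and 12.4 at chr7:137506330-137506488. These 6 were 151 to 165 bp wide with summits 2 to 15 bp apart. The exception was chr6:125826902-125827253, 352 bp wide, with folds of 17.5 and 15.7 from summits 190 bp apart.

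Replicate 2 files list only called peaks, so the level actually present there at the 59 regions is not given. Scaled to replicate 2 depth, their replicate 1 summits would hold 14.6 to 102 (even) and 15.0 to 77.4 (odd) fragments. In each pool all 59 would stand at or above 5 fragments, the lowest replicate 2 summit called over the genome-wide mean. The replicate 2 background at these places is not listed, so whether that level would have been called was not tested. None of the 59 had a replicate 2 peak within 1 kb and 3 had one within 10 kb. Sequence features and genes at these places were not analysed here, since the gene and sequence tables at hand are on another build than the mm9 coordinates of the lists. The captured libraries of replicate 1 are those with 47.6% and 40.2% duplicates, whose part in these calls was not tested.

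Where a region was called in the same pool of both replicates, replicate 1 held more fragments per kept tag. This was so at 24 of 27 low-background regions with even probes and at 35 of 39 with odd probes. For regions called with both replicate 1 pools the median ratio of replicate 1 to replicate 2 was 4.19 (even, n = 22) and 2.93 (odd, n = 26), and for regions called with 1 pool 2.19 (n = 5) and 1.25 (n = 13). The regions were chosen in the shallower replicate, whose lowest called summit held more FPM. The part of this choice in the ratios was not tested. The order of the regions was partly kept: the Spearman correlation between the replicates' folds was 0.63 with even (n = 27) and 0.63 with odd probes (n = 39). At regions with a replicate 2 peak, the nearest replicate 2 summit lay a median of 14 bp from the strongest replicate 1 summit (n = 60), and 8 bp at the 28 low-background regions called with both pools.

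**Figure D5:**
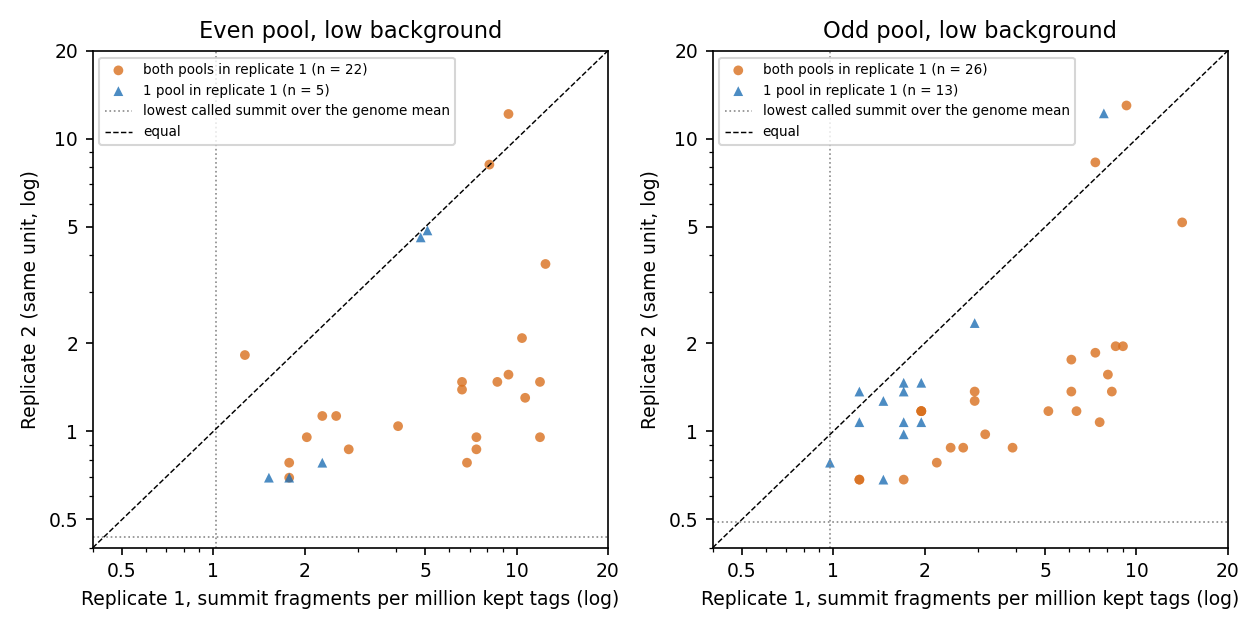
Summit fragments per 1000000 kept tags (FPM) in replicate 1 (horizontal) and replicate 2 (vertical), log axes, for low-background regions called in the same pool of both replicates, even pool and odd pool in separate panels, marked by the number of replicate 1 pools. Of the even points 24 of 27, and of the odd points 35 of 39, lie below the line of equal level.

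The 211 regions called with 1 pool were described by q-value and by pool. Peaks with a q-value above 0.05 made up 20 of the 119 even-only and 31 of the 92 odd-only regions, against none of the 87 low-background regions called with both pools when the better pool of each is taken. A −log10 q of 10 or more was reached by 9 of 113 low-background even-only regions, by 0 of 90 odd-only regions and, in the better pool, by 61 of the 87. Each of the 87 had to pass the cutoff in both pools and is given by its better pool, so nothing is read from these gaps. Replicate 2 peaks met 9 of 119 even-only regions (7.56%, interval 3.52 to 13.9%) and 17 of 92 odd-only regions (18.5%, interval 11.1 to 27.9%), whose intervals overlap. The even-only class was the more numerous and held the stronger peaks, yet the smaller share of it recurred; the difference was not tested.

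The 5 even-only regions of highest −log10 q had no replicate 2 peak. They were chr15:77919190-77919339 (16 fragments, fold 12.8), chr1:170605296-170605406 (13 fragments, fold 11.3), and chr10:60985078-60985226, chr7:62766198-62766344 and chrX:96573360-96573508 (12 fragments and a fold of 10.8 each). Among the 29 low-background even-only regions whose −log10 q was at least 5, the 1 that recurred was chr13:27297904-27298047 (9 fragments, and a fold of 6.31 in the even list of replicate 2). Below that value 7 of 84 recurred, 1 of which was chr3:110564472-110564582 (even fold 6.67, and 9.21 in the odd list of replicate 2).

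The 5 odd-only regions of highest −log10 q were lower and more often met by replicate 2. At chr11:61810284-61810493 the odd fold of 7.45 was followed by 19.6 (even) and 7.90 (odd) in replicate 2. At chr2:77133012-77133258 a fold of 7.45 was followed by 10.4 and 5.97, and at chr9:70878988-70879089 a fold of 6.62 by 11.1 and 7.70. Folds depend on depth, and in FPM the odd summits of these 3 regions were lower in replicate 2. They went from 1.95 to 1.08, from 1.95 to 1.47 and from 1.71 to 1.08, in the order named. The 2 others, chr1:12165187-12165343 (fold 8.28) and chr16:49868026-49868143 (fold 7.44), had no replicate 2 peak. The even pool, which missed the first 3 in replicate 1, gave the higher fold at each of them in replicate 2.

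Of the 26 recurring regions called with 1 pool, 23 were met in replicate 2 by the pool that had missed them in replicate 1. The pool that had called them met 6 of 9 even-only and 13 of 17 odd-only regions again. Where the same pool called a low-background region of this kind in both replicates, the replicate 2 fold was the higher at 9 of 18. In FPM, replicate 1 was the higher at 5 of 5 of these with even probes and at 11 of 13 with odd probes. The part of the lower depth of replicate 1 in these missed calls was not tested.

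Several recurring regions called with 1 pool lay side by side. The odd-only pairs at chr2:77133012-77134156 (folds 7.45 and 6.62), chr8:123877810-123878342 (4.11 and 6.58) and chr9:70878654-70879089 (5.79 and 6.62) were met by both replicate 2 lists at both regions, with replicate 2 folds of 5.97 to 10.4, 5.92 to 7.71 and 7.70 to 11.1. The pair at chr5:147072587-147072877 (folds 3.18 and 4.65) was likewise met at both regions, over a background of 3.30 to 5.61 fragments, with replicate 2 folds of 2.86 to 3.39. Such pairs lie within 10 kb and are counted here as 2 regions, or as 1 place where neighbours are counted once.

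The 28 high-background regions had many fragments and low folds. Summits held 29 to 138 fragments with even and 37 to 138 with odd probes, and folds ran from 1.74 to 3.30 (even) and 1.87 to 3.59 (odd). The lowest background of a region, which sets the class, was 10.2 to 47.8 scaled fragments (median 24.6). Before scaling, the background at the strongest peak (even where called) was 31 to 145 input fragments, with a median of 74.5. Median summits held 61 (even) and 70.5 (odd) captured fragments. The input library kept 11924618 tags, more than either captured library. Keeping 1 tag per position limits such counts, and its part in these folds was not tested. The class held 20 of the 107 regions called with both pools (18.7%) and 8 of the 211 called with 1 (3.79%). The even fold was the higher at 13 of the 20 called with both pools (interval 40.8 to 84.6%).

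Of these regions 19 lay in 3 groups of neighbours less than 10 kb apart. The largest, chr9:3019281-3036426, spanned 17.1 kb and held 10 regions, 6 called with both pools, with folds of 2.06 to 2.91 over backgrounds of 12.5 to 37.5 fragments; none had a replicate 2 peak. The group chr2:98502418-98507485 spanned 5.07 kb and held 5 regions with folds of 1.87 to 3.24 over 27.7 to 42.6 fragments. Its widest region, chr2:98506636-98507485, 850 bp, held 119 even and 111 odd fragments (folds 3.08 and 2.76). A replicate 2 peak met 1 region of that group, chr2:98503918-98504276, with a fold of 1.49 in the odd list, where replicate 1 had folds of 2.25 and 2.28.

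The group on chromosome 17 recurred as a whole. In chr17:39980128-39985741, 5.61 kb, all 7 regions were met by both replicate 2 lists, with folds of 2.58 to 3.60 in replicate 1 and 2.12 to 4.11 in replicate 2. Neighbouring regions partly met the same replicate 2 peak, so their values are not separate. The background was 9.24 to 15.1 fragments over all peaks of the group, and by the lowest value of each region 4 of the 7 were above the cut of 10 and 3 just below it, at 9.24 to 9.97. It held the widest region of all, chr17:39981999-39983110, 1112 bp, with folds of 3.30 and 2.98, and the third widest, chr17:39984940-39985741, 802 bp, with folds of 3.60 and 3.35. In FPM this group did not stand higher in replicate 1: at chr17:39984940-39985741 the ratio of replicate 1 to replicate 2 was 0.773 with even and 0.713 with odd probes.

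The highest background of all was at chr9:35112766-35113113, 348 bp, where both summits held 138 fragments over 47.8 (even) and 49.8 (odd) background fragments, with folds of 2.85 and 2.73 and no replicate 2 peak. The other 4 of the 5 highest were 2 regions of the chromosome 2 group, chr2:98502831-98503102 (folds 2.41 and 2.59) and chr2:98503918-98504276, with chr4:70039124-70039331 (2.13 and 2.05) and the mitochondrial region chrM:1310-1517, called with even probes only (1.85). Mitochondrial DNA, present in many copies per cell, also held chrM:15538-15651 (even, fold 1.74) and chrM:16050-16204 (folds 2.99 and 2.54), and replicate 2 had no peak there. Outside the chromosome 17 and chromosome 2 groups, 2 high-background regions recurred, and both did so in both lists: chr11:108873052-108873329 (folds 3.10 and 3.46, then 3.26 and 3.62) and chr3:5860632-5860788 (2.52 and 3.26, then 2.55 and 2.73). In all, 7 of the 28 recurred.

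The regions were spread over 22 chromosomes. Chromosome 9 held most, with 33, or 22 when neighbours within 10 kb are counted once, followed by chromosome 8 with 25, chromosome 6 with 23, chromosome 2 with 22 and chromosome 11 with 21. Counting neighbours once left 291 places. The X chromosome held 6 regions and the Y chromosome 1, chrY:427381-427484, called with both pools at folds of 11.7 and 9.93. No region on chromosomes 10, 12, 15 and 19 recurred, of 10, 13, 8 and 6 regions, nor did the 1 on chromosome Y or the 3 of mitochondrial DNA. On chromosome 17, 9 of 19 recurred, 7 of them in its group. Over all regions 60 of 318 (18.9%) did, and differences between chromosomes were not tested. Chromosome lengths of the build were not used, so no density is given.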

How the data were processed

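Even and odd ChIRP-seq captures and inputs of 2 replicates were sequenced from preadipocytes. The submitters' processing notes name FastQC, cutadapt, Bowtie, MACS2 and the build mm9. Per the file headers, MACS 2.1.1.20160309 compared every captured library with the input of the same replicate, with a p cutoff of 5e-05, tags extended to 95 bp, 1 tag kept per position and the larger library scaled to the smaller. Keeping 1 tag per position limits summit height. The handling of multiply mapping reads is not given in the sources used here.

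The deposited signal is the pileup at the summit in fragments, unscaled for the captured libraries. The deposited fold is a ratio with 1 added to both terms, and the significance columns, −log10 q-values beside −log10 p-values, are the authors' too. The file headers say that q-values were not calculated, although the lists hold a −log10 q column, which was used as it stands. Depth was read from the file headers.

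From these, regions were merged and intersected at 1 bp and local background was computed as (pileup + 1) / fold − 1, using Python 3.11.15, numpy 2.4.6, pandas 2.3.3 and scipy 1.17.1, with matplotlib 3.10.9 for plots. Merging was checked on simulated lists, where 10 of 10 runs matched. Regions were grouped by pools called, background and replicate 2 peaks, with no test. A region's class follows the lowest background among its peaks. Named regions are the 10 strongest of both pools without a replicate 2 peak (by the smaller fold), the 5 even-only and 5 odd-only regions of highest −log10 q, the 6 recurring regions of 1 pool with the highest fold, the 5 of highest background, the 3 widest and all groups of 3 or more within 10 kb. The strongest recurring regions, the wide ones, the pairs of neighbours and the threshold cases were named after their values were seen. Members and lists were chosen with earlier results of these data known. The width split at 170 bp, the width band from 140 bp, the fold bins, the split at 10 fragments and the comparison of summits with replicate 2 were added after the values were seen. Alternatives covered overlap, cutoffs, background, neighbours and left-out libraries.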

Additional observations from a re-analysis of the deposited data

How the results depend on the processing

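Of 47 alternative values, 40 stayed close to the reported one (a count within 1.5 times, a median or correlation within its 95% interval) and 7 moved. Counts were compared without their totals, so a share can change where its count is close. At a −log10 q of at least 5, 74 of 123 regions (60.2%) were called with both pools, against 107 of 318 (33.6%). Regions called with both pools that had a replicate 2 peak fell from 34 of 107 to 17 of 74 when only peaks with a −log10 q of at least 5 were kept, and to 19 of 79 at a fold of at least 5. For regions called with 1 pool the count fell from 26 of 211 to 5 of 49 at that −log10 q. Both filters remove peaks from all 4 lists. High-background regions numbered 18 in place of 28 at a cut of 20 fragments, and 34 at a cut of 10 input fragments before scaling, an alternative added after the data were seen. The median local background was 0.251 to 0.294 fragments with 1 replicate 1 library left out, and 0.241 at a −log10 q of at least 5, against 0.261. The Spearman correlation between the pools' folds was 0.83 without high-background regions, against 0.90. Leaving out 1 replicate 2 library gave 27 to 32 recurring regions of both pools and 20 to 22 of 1 pool. Without the chromosome 17 group, also added later, 29 of 102 regions of both pools recurred. Leaving out a replicate 1 library leaves no regions of both pools, so that count has no such value. No paired analysis was possible because the results come from no test: they are counts, medians and correlations over peak lists. Over the genome-wide background the lowest called summit held 4 fragments in replicate 1 and 5 in replicate 2. In FPM these were 1.02 (even) and 0.976 (odd) in replicate 1, and 0.434 and 0.489 in replicate 2. The part of depth in what replicate 1 called was not tested.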
